A study of Bos taurus with 9 samples.

Results

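The endothelin system genes EDN1, EDN2, EDNRA, EDNRB and ECE1 were followed in bovine uterine gland fragments cultured in 3D. They were taken by symbol, as 5 of the 20679 genes listed. The genes were selected on their place in the endothelin system and on the counts and TPM of these same 3 groups, which were known at the time. Which of the comparisons weighed in that choice is not recorded, so the members' values in all 3 are given as a description, with no p-value. The SE and intervals of members take no account of that choice. Nothing is read from whether a member passed the call threshold. The share of all genes that did is given with EDN1 for each comparison. RNA was sequenced from 9 cultures on day 5. In the CYST group (n = 3) the fragments were kept in Matrigel, a basement membrane extract, without EGF and formed cysts. In the MAT group (n = 3) epidermal growth factor (EGF), given at 5 ng/ml in the study's methods, was added and the fragments formed UG-LIKE structures, tubes that resemble uterine glands. In the MAT + COL group (n = 3) EGF was given in Matrigel mixed with collagen I, at 0.5 mg/ml in the methods. All 3 groups received the same basal medium with bovine serum albumin, ascorbic acid, transferrin, sodium selenite and insulin. The labels name the cells epithelial, and say nothing of the animals, so that the spread between libraries may be in part technical. The paper reports that the MAT and MAT + COL samples clustered mainly by individual.

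Endothelins are small secreted peptides best known as vasoconstrictors. They are made as long precursors that a furin-type protease trims to big endothelin, and ECE1, a membrane metalloprotease, then cuts big endothelin to the active peptide. EDNRA and EDNRB are G protein-coupled receptors. EDNRA prefers the EDN1 and EDN2 peptides, while EDNRB binds all endothelins alike and also clears them. In the uterus, endothelin 1 has been described in the endometrial epithelium and endothelium.

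Library totals ran from 6568968 to 17948600 counts, and no pair of libraries held identical values. Of the epithelial markers, 6 of 6 had counts in each of the 9 libraries. So did 6 of 6 stromal fibroblast and 6 of 6 smooth muscle and pericyte markers. By level, the epithelial sum was the largest of the marker sums in every library. Sums over different genes do not measure the share of cells, so they do not test the epithelial label. The epithelial sum was 16649 to 18423 TPM in CYST, 27613 to 43306 TPM in MAT and 28181 to 38520 TPM in MAT + COL. KRT8 and KRT19 made up most of it and most of its lead over the other sums. FOXA2 was at 1.31 to 12.4 TPM. TPM is a level per length of transcript, scaled to the library, so levels of different genes can be set side by side. Stromal fibroblast markers were present too, at 1985 to 4486, 738 to 2946 and 1870 to 3439 TPM in the 3 groups. Fewer cells of a type and less RNA per cell cannot be told apart in bulk RNA.

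EDN1, the precursor of endothelin 1, lies on the minus strand of chromosome 23 (ARS-UCD2.0, 44156442 to 44163440; ENSBTAG00000008096). Its level was 248, 134 and 83.3 TPM in the CYST libraries 1, 2 and 3. In MAT it was 18.7, 15.5 and 15.2 TPM, and in MAT + COL 26.7, 22.6 and 23.8 TPM. All 3 CYST libraries were above all 6 libraries with EGF, the lowest of the former at 83.3 TPM and the highest of the latter at 26.7 TPM. Taking 1 group with EGF at a time, 11.8% of genes tested were likewise lower without overlap in MAT and 10.3% in MAT + COL. The share for all 6 libraries with EGF at once was not counted. Group levels were 155 ± 84.1 TPM (SD, n = 3) in CYST, 16.5 ± 1.96 TPM in MAT and 24.4 ± 2.08 TPM in MAT + COL. In CYST, EDN1 stood at the 87.0 to 94.9 percentile of the genes detected in the library. In MAT it stood at 55.6 to 57.0 and in MAT + COL at 62.5 to 64.8.

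**Figure D1:**
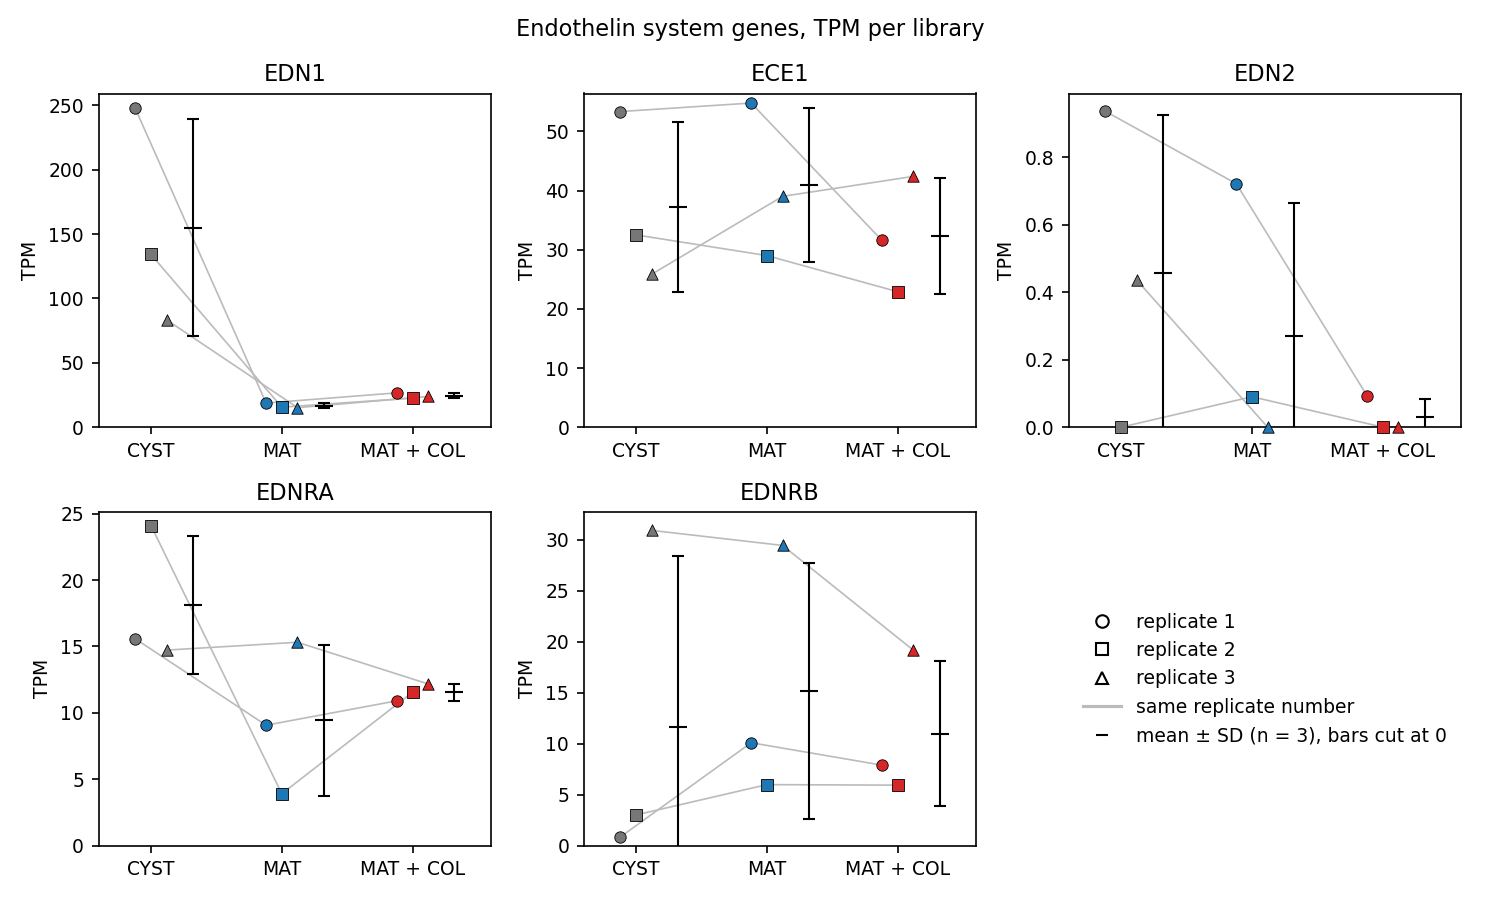
TPM of the 5 genes in each library (vertical axes, TPM, on separate linear scales), by group, with symbols for the replicate number, grey lines between libraries of the same number, and the mean ± SD of 3 libraries in black, cut at 0. EDN1 is at 83.3 TPM or more in CYST and at 26.7 TPM or less in MAT and MAT + COL, whereas the groups overlap for ECE1, EDN2 and EDNRB.

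The Log2FC of EDN1 in MAT relative to CYST was -3.21 (SE 0.35), a 9.28-fold lower level, and in MAT + COL relative to CYST it was -2.70 (SE 0.34), a 6.50-fold lower level. In the lower direction, 0.729% and 0.616% of all genes tested met the criteria for DEGs in the 2 comparisons. EDN1 was one of them in both, which its selection on these values makes no evidence. The adjusted p alone called 1.79% and 1.49% of genes without the replicate block, and 10.6% and 5.26% with it. EDN1 was called with the block too (Log2FC -3.10 and -2.60), and EDNRA, EDNRB and ECE1 were not called in either fit. Of 12074 genes tested in MAT relative to CYST, 32 had a lower Log2FC than EDN1. Of 12509 genes tested in MAT + COL relative to CYST, 53 did. The 2 comparisons share the CYST libraries, so that one is no check of the other. Between libraries of the same replicate number, CYST was 13.2, 8.65 and 5.49 times MAT, and 9.29, 5.94 and 3.50 times MAT + COL.

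The spread of EDN1 differed between groups. The highest CYST library was 2.97 times the lowest, against 1.23 times in MAT and 1.18 times in MAT + COL. CYST replicate 1 was the highest. Without it, the Log2FC of EDN1 in MAT relative to CYST was -2.72. The adjusted p, called under 0.05, was above that limit without CYST replicate 2 (Log2FC -3.30), MAT replicate 1 (-3.24) or MAT replicate 2 (-3.17), settings in which 5, 9 and 32 of all genes tested were called. In MAT + COL relative to CYST the call was lost without CYST replicate 2 (-2.83), MAT + COL replicate 1 (-2.71) or MAT + COL replicate 2 (-2.67). Over the libraries left out in that comparison, 3 to 186 of all genes tested were called. Group membership held 94.7% of the sum of squares of log2 CPM of EDN1 over the 9 libraries and the replicate number 2.32%, where the median gene had 29.9% and 32.02%.

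Endothelial cells are a known source of endothelin 1, and their 6 markers were low in all libraries. Their summed level was 13.2 to 22.2 TPM in CYST, 8.26 to 42.2 TPM in MAT and 15.1 to 40.1 TPM in MAT + COL, and TIE1 was at 0 in 5 of 9 libraries. The 6 smooth muscle and pericyte markers summed to 86.3, 85.3 and 45.3 TPM in CYST replicates 1, 2 and 3, and to 25.1 to 50.4 TPM in the 6 libraries with EGF. The part of epithelial, endothelial and smooth muscle cells in the levels of EDN1 was not tested.

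The comparison of MAT + COL with MAT asked what collagen I added in the presence of EGF. EDN1 was higher in each MAT + COL library than in each MAT library, by 1.42, 1.46 and 1.57 times between libraries of the same number. Its Log2FC was 0.49 (SE 0.20, 95% interval 0.023 to 0.96). That interval takes no account of the selection of EDN1, so no difference from 0 is read from it. EDN1 was not called here, with or without the replicate block. No gene of the 12470 tested was called in this comparison (0%), with or without the block or in DESeq2. At an unadjusted p under 0.05, edgeR had 51 genes (0.409%) without the block and 618 (4.96%) with it, and DESeq2 had 81. Groups did not overlap in the higher direction for 2.75% of genes.

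EDN2, on chromosome 3 (104694669 to 104706947, plus strand; ENSBTAG00000021434), encodes the precursor of endothelin 2. It had 5, 0 and 3 counts in CYST, 3, 1 and 0 in MAT, and 1, 0 and 0 in MAT + COL. The sums were 8 of 35211930, 4 of 37444077 and 1 of 52422123 counts. In the 4 libraries with no count, a count of 0 allows 0.167 to 0.232 CPM (counts scaled to the library total), for counting error only. EDN2 fell below the filter on low counts and was not tested, and a difference between groups was not detectable at this depth. EDN3, the remaining endothelin gene, had no count in any of the 9 libraries. EDN1 was thus the endothelin gene with most of the reads in every library.

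ECE1 (chromosome 2, 131324472 to 131449329, plus strand; ENSBTAG00000002977) was expressed in every library. Its level was 53.4, 32.5 and 25.9 TPM in CYST, 54.8, 29.0 and 39.0 TPM in MAT, and 31.6, 22.9 and 42.4 TPM in MAT + COL. The 3 groups overlapped throughout, with means of 37.2 ± 14.3, 40.9 ± 13.0 and 32.3 ± 9.77 TPM (SD, n = 3). The Log2FC was 0.14 (SE 0.30) in MAT relative to CYST and -0.24 (SE 0.32) in MAT + COL relative to CYST, and neither met the threshold. In MAT + COL relative to MAT it was -0.40 (95% interval -1.15 to 0.34) and was not called. With the replicate block it was -0.41 (SE 0.17), also not called. More of the sum of squares of ECE1 went with the replicate number (47.5%) than with the group (16.9%).

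**Figure D2:**
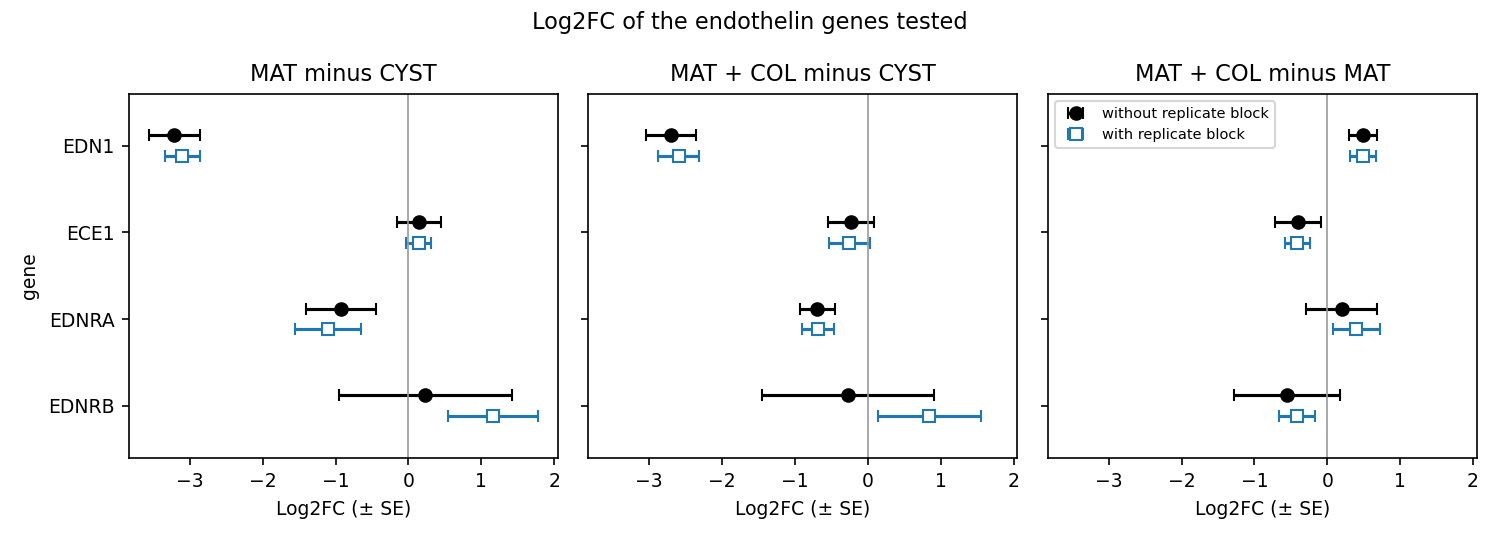
Log2FC of the 4 genes tested (horizontal axis; bars are the SE) in the 3 comparisons, without the replicate block (black circles) and with it (blue squares). EDN1 lies at -3.21 and -2.70 relative to CYST and at 0.49 for collagen I. The block moves EDNRB from 0.23 to 1.16 in MAT relative to CYST.

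EDNRA (chromosome 17, 10596771 to 10669866, minus strand; ENSBTAG00000013674) encodes the endothelin A receptor. It measured 15.6, 24.1 and 14.7 TPM in CYST, 9.07, 3.91 and 15.3 TPM in MAT, and 10.9, 11.6 and 12.2 TPM in MAT + COL. All 3 CYST libraries were above all 3 MAT + COL libraries, against the same 10.3% of genes, whereas MAT replicate 3 was within the CYST range. The Log2FC was -0.93 (SE 0.48) in MAT and -0.70 (SE 0.24) in MAT + COL relative to CYST, and neither was called. For collagen I it was 0.19 (95% interval -0.95 to 1.34), which was not called, and -0.17 without MAT replicate 2. With the replicate block it was 0.40 (SE 0.32), also not called.

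The lowest EDNRA level, 3.91 TPM in MAT replicate 2, was in the library with the lowest sums of stromal fibroblast markers (738 TPM), endothelial markers (8.26 TPM) and smooth muscle markers (25.1 TPM). The highest EDNRA level, in CYST replicate 2, went with 2782 TPM of stromal markers, while the highest stromal sum, 4486 TPM in CYST replicate 3, went with 14.7 TPM of EDNRA. The part of these cells in the EDNRA level was not tested.

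EDNRB (chromosome 12, 53038377 to 53068132, minus strand; ENSBTAG00000005299) encodes the endothelin B receptor and had the largest ratio of highest to lowest library of the 4 genes tested in each group. It measured 0.858, 3.02 and 30.9 TPM in CYST, 10.1, 5.99 and 29.5 TPM in MAT, and 7.90, 5.94 and 19.2 TPM in MAT + COL. Replicate 3 was the highest in each group, and the highest CYST library was 36.1 times the lowest. The replicate number held 65.1% of the sum of squares and the group 14.5%.

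The Log2FC of EDNRB relative to CYST was 0.23 (SE 1.18) in MAT and -0.27 (SE 1.17) in MAT + COL. These depended on CYST replicate 3: without it they were 3.04 and 2.53, and neither was called. With the block they were 1.16 and 0.85, also uncalled. For collagen I the Log2FC was -0.55 (95% interval -2.26 to 1.16), which was not called, and 0.45 without MAT replicate 3. With the block it was -0.42 (SE 0.24), also not called. The endothelial marker sum was also highest in replicate 3 of each group, at 22.2, 42.2 and 40.1 TPM. Single markers differed. CLDN5, PECAM1 and CDH5 were highest there too, CLDN5 at 7.67, 18.0 and 13.9 TPM. KDR was lowest in replicate 3 of each group, at 1.11, 2.43 and 1.07 TPM. VWF was lowest there in CYST, at 3.84 TPM, but highest there in the other groups. The stromal sum was highest in replicate 3 as well. Their part in the EDNRB level was not tested.

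**Figure D3:**
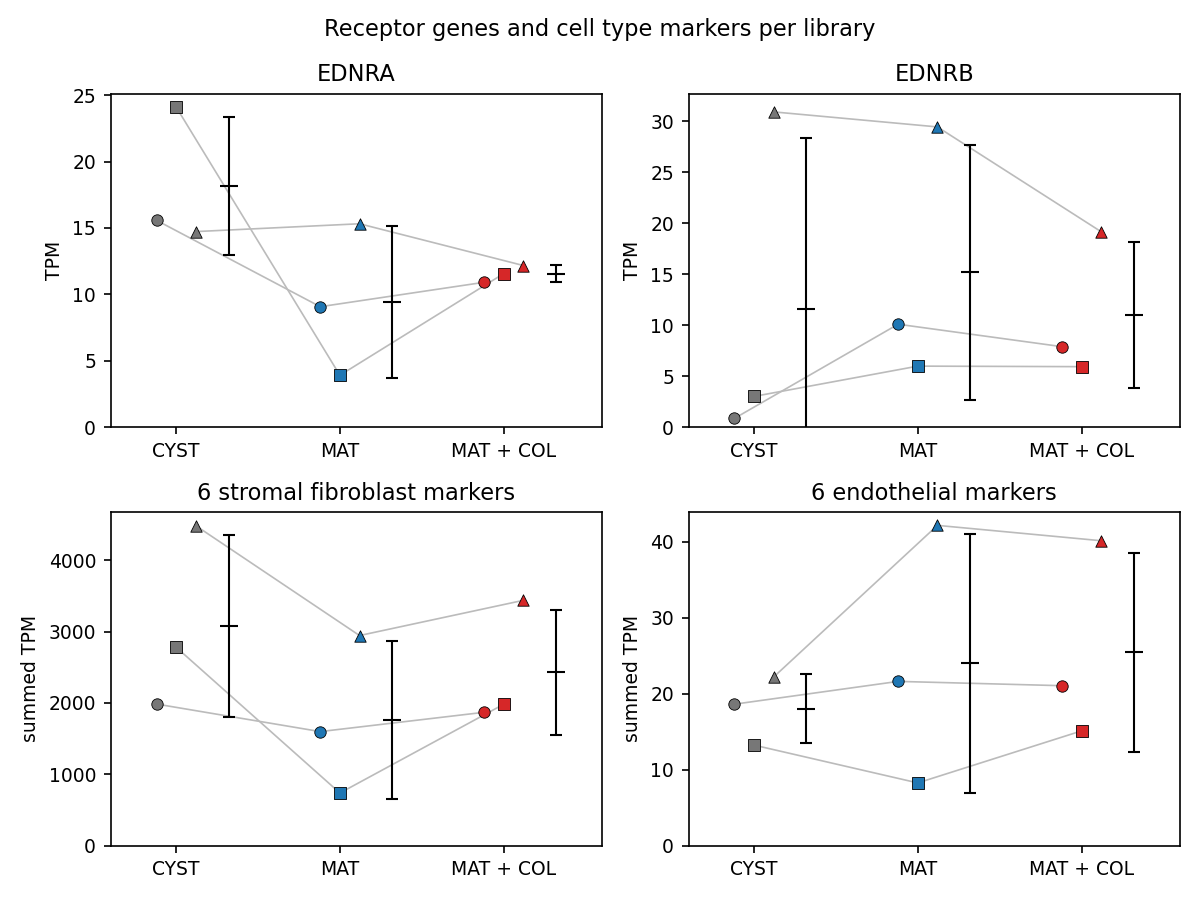
Levels of EDNRA and EDNRB (upper panels, TPM) and summed TPM of 6 stromal fibroblast and 6 endothelial markers (lower panels) in each library, by group; circles, squares and triangles are replicates 1, 2 and 3, grey lines join the same number, and black bars are the mean ± SD of 3 libraries, cut at 0. EDNRB and both marker sums are highest in replicate 3 of every group, and EDNRA is lowest in MAT replicate 2, at 3.91 TPM. The endothelial marker KDR on its own (not drawn) is lowest in replicate 3 of every group.

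The order of the levels changed between groups. EDN1 was above ECE1 in 3 of 3 CYST libraries and below it in 6 of 6 libraries with EGF. In MAT + COL replicate 2 the gap was small, at 22.6 and 22.9 TPM. ECE1 was above EDNRA in 9 of 9 libraries. EDN1 was above EDNRA in 8 of 9, the exception being MAT replicate 3 (15.2 and 15.3 TPM). EDNRA and EDNRB had no fixed order, with EDNRA the higher in 4 of 9 libraries. Differences in level between genes were not tested.

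Genes around the endothelin system were taken from 4 lists, of which 74 of 82 symbols were matched. The lists were chosen with earlier results of these data known. Their counts, medians and adjusted p are therefore a description and no independent test. The symbols not matched were ECE2, CMA1, GNAI3, GNAS, PLCB3, PPARG, RAMP1 and BDKRB1. In MAT + COL relative to MAT and, without the block, to CYST, no gene of the lists was called.

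The first list held enzymes that process or clear endothelins. Of 6 tested in MAT relative to CYST, 1 was called lower and none higher (background 0.944% and 0.845%), with a median Log2FC of -0.23 against 0.012 over all genes. The called gene was MME, neprilysin, a membrane peptidase that degrades endothelins and other peptides. It measured 104, 85.8 and 30.4 TPM in CYST, 9.73, 15.2 and 18.4 TPM in MAT, and 27.5, 26.1 and 24.2 TPM in MAT + COL. The CYST libraries were above all MAT libraries, as for 11.8% of genes, and the Log2FC of MAT was -2.29 (SE 0.41; adjusted p = 0.045 in edgeR). In MAT + COL relative to CYST it was -1.51 (SE 0.35; adjusted p = 0.070). Each MAT + COL library was above each MAT library, as for 2.75% of genes, with a Log2FC of 0.75 (95% interval 0.11 to 1.39; adjusted p = 1 in edgeR).

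The call of MME in MAT relative to CYST was lost when any library other than CYST replicate 3 was left out. The adjusted p was 0.166 without CYST replicate 1, 0.141 without CYST replicate 2, 0.140 without MAT replicate 1, 0.103 without MAT replicate 2 and 0.0694 without MAT replicate 3. Without CYST replicate 3 it was 0.0155. With all 6 libraries, limma on log2(TPM + 1) and log2(TPM + 0.1) gave 0.0509 and 0.0559. The edgeR fit with the replicate block gave 0.0229, and it called 5.67% of all genes lower. MME was called in 6 of 13 alternatives, and leaving out 1 library called 5 to 267 of all genes tested. FURIN and CTSA, a protease of the precursor and a lysosomal carboxypeptidase, had a Log2FC of -0.19 and 0.0092 and were not called. Both were named after their values were seen.

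The second list held signalling proteins downstream of the receptors. Of 18 tested in MAT relative to CYST, 1 rose and none fell, where 0.845% of all genes rose and 0.944% fell. The median Log2FC was 0.29, against 0.012 over all genes. The gene that rose was PRKCD, protein kinase C delta, which diacylglycerol activates. It measured 33.1, 25.9 and 20.4 TPM in CYST, 64.8, 51.0 and 63.0 TPM in MAT, and 60.5, 49.2 and 64.1 TPM in MAT + COL, with no overlap between CYST and either group with EGF, where 11.9% and 14.3% of genes were likewise higher. The Log2FC was 1.18 in MAT (SE 0.21; adjusted p = 0.0448 in edgeR) and 1.08 in MAT + COL (SE 0.21; adjusted p = 0.0544, and 0.0400 with the replicate block). The call in MAT was lost when any 1 of the 6 libraries was left out. The adjusted p was then 0.116, 0.145 and 0.0636 without CYST replicates 1, 2 and 3, and 0.134, 0.0751 and 0.0851 without MAT replicates 1, 2 and 3. With all 6, limma on log2(TPM + 1) and log2(TPM + 0.1) gave 0.0519 and 0.0559. The edgeR fit with the replicate block gave 0.0131 in MAT. PRKCD was called in 5 of 13 alternatives, and leaving out 1 library called 5 to 267 of all genes tested. ITPR3, an inositol trisphosphate receptor, was named after its values were seen. Its Log2FC in MAT relative to CYST was 1.40, with an adjusted p of 0.111 in edgeR and of 0.0464 with the block. The block called 4.9% of all genes higher in MAT and 2.68% in MAT + COL relative to CYST.

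The third list held transcription factors that have been described at the EDN1 promoter. None of 16 tested was called in any of the 3 comparisons, with or without the block. Their Log2FC in MAT relative to CYST was positive for 14 of 16 with a median of 0.31, where 50.8% of all genes were positive. FOS, at 854 TPM on average in MAT and 613 TPM in CYST, and HIF1A, at 460 and 416 TPM, were the most abundant and were named after their values were seen. FOXO1 went the other way, at 40.1 TPM on average in MAT and 77.8 TPM in CYST (Log2FC -1.02). It was also named after its values were seen.

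The fourth list held other vasoactive systems, such as adrenomedullin, angiotensin, bradykinin and nitric oxide. Of 24 symbols matched, 9 were tested in MAT relative to CYST and none was called, with a median Log2FC of -0.42. With the block 1 was called lower, as were 5.67% of all genes. That gene was AGT, the precursor of angiotensin, with a Log2FC of -2.51 and an adjusted p of 0.0874 in edgeR, and of 0.0468 with the block. BDKRB2, a bradykinin receptor, had an adjusted p of 0.0702 in MAT + COL relative to CYST, and of 0.0456 with the block, at a Log2FC of -1.02. The block called 2.58% of all genes lower in that comparison. Both were named after their values were seen. AGTR2, NPPA, UTS2, NOS1, VIP and RAMP3 were at or under 3 counts in all 9 libraries, as were ECEL1, PLCB2 and GATA4 of the other lists.

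**Figure D4:**
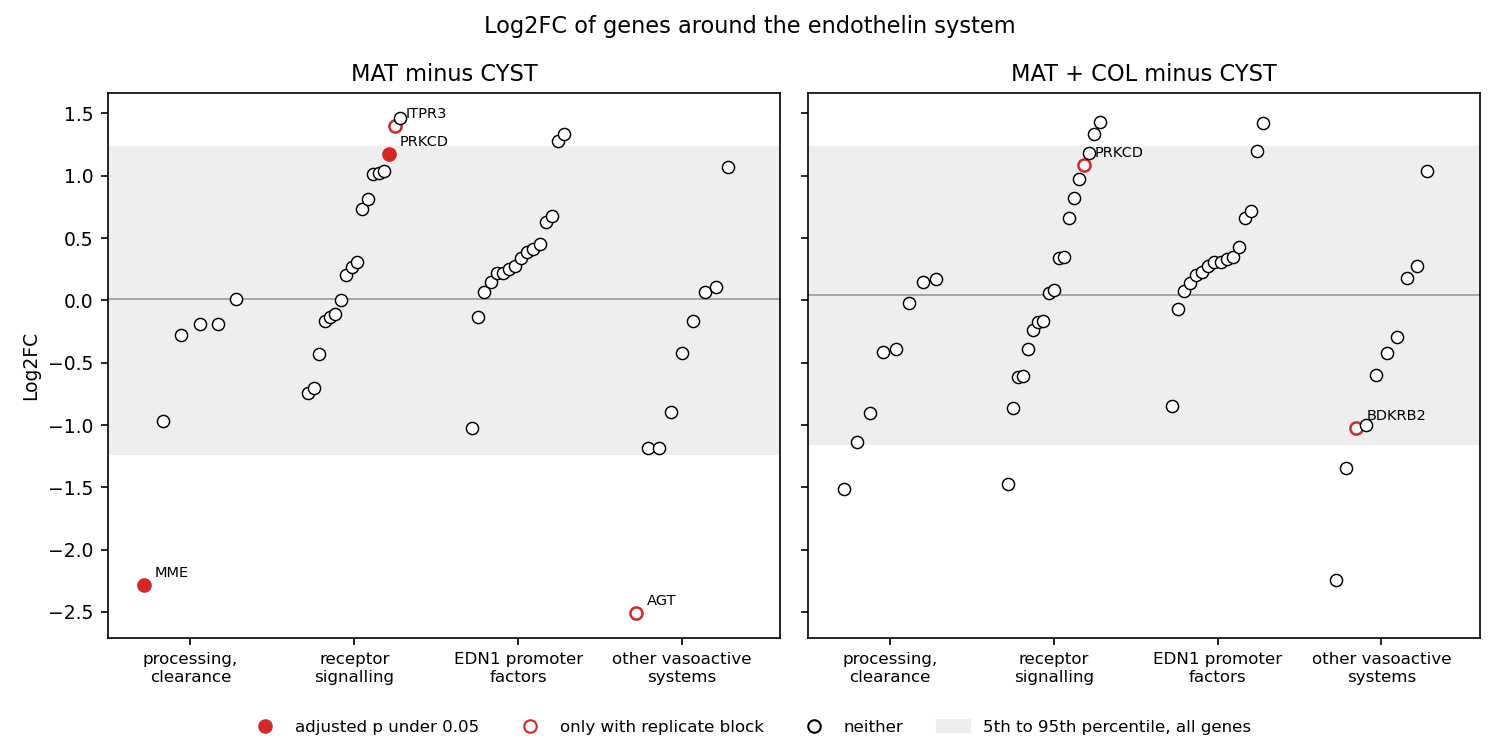
Log2FC (vertical axis) of every tested gene of the 4 lists in MAT and in MAT + COL relative to CYST; the grey band is the range from the 5th to the 95th percentile of all genes tested and the line their median. Filled red points are called, open red points only with the replicate block. MME at -2.29 and PRKCD at 1.18 are the 2 filled points in MAT.

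Genes with profiles most like each member were found by the root mean square difference of log2 CPM, each gene centred on its mean, over the 9 libraries and 12857 genes. For EDN1 they were BPIFA1 (0.24), PAQR7 (0.40) and LRP2 (0.45), where the median gene differed by 1.47. BPIFA1, a secreted airway protein, had only 13, 13 and 7 counts in CYST and none in the 6 libraries with EGF, so that it passed the filter through CYST alone and its profile with EGF is set by the prior count. Among genes with a mean of 10 or more counts the nearest were PAQR7, LRP2 and PHGDH. PAQR7, a membrane progesterone receptor, measured 1.81 to 6.37 TPM in CYST and 0.415 to 1.48 TPM with EGF. LRP2, the endocytic receptor megalin, measured 2.51 to 9.57 TPM in CYST and 0.584 to 1.51 TPM with EGF. Neither they nor BPIFA1 were among the nearest on log2(TPM + 1), where the order was SLC10A2, CYP2C23 and PHGDH.

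For EDNRA the nearest were AXL, a receptor tyrosine kinase (0.17), GCNT4 (0.20) and the chemokine CXCL5 (0.26), and each was lowest in MAT replicate 2, as EDNRA was. For EDNRB they were PPP1R3C (0.55), CFAP263 (0.59) and FGF11 (0.59), where the median gene differed by 1.62. FGF11 had 0, 0 and 11 counts in CYST and was tested in no comparison. CFAP263 had 0 counts in CYST replicate 1. Their values at 0 counts are set by the prior count. Of the 3 genes nearest to EDNRB, PPP1R3C alone was kept on log2(TPM + 1), beside KRT17 and CDKN1A. CHST15 took the place of FGF11 at a mean of 10 or more counts. On log2(TPM + 1), WNT5A took the place of GCNT4 for EDNRA. For ECE1 the nearest were GCH1 (0.13), H2AX (0.14) and ABHD13 (0.15). The same 3 were nearest to ECE1 under both alternatives. These are likenesses over libraries that share depth and replicate number. The genes were chosen for likeness over these same libraries, so a shared pattern, such as the dip in MAT replicate 2, follows from the choice.

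**Figure D5:**
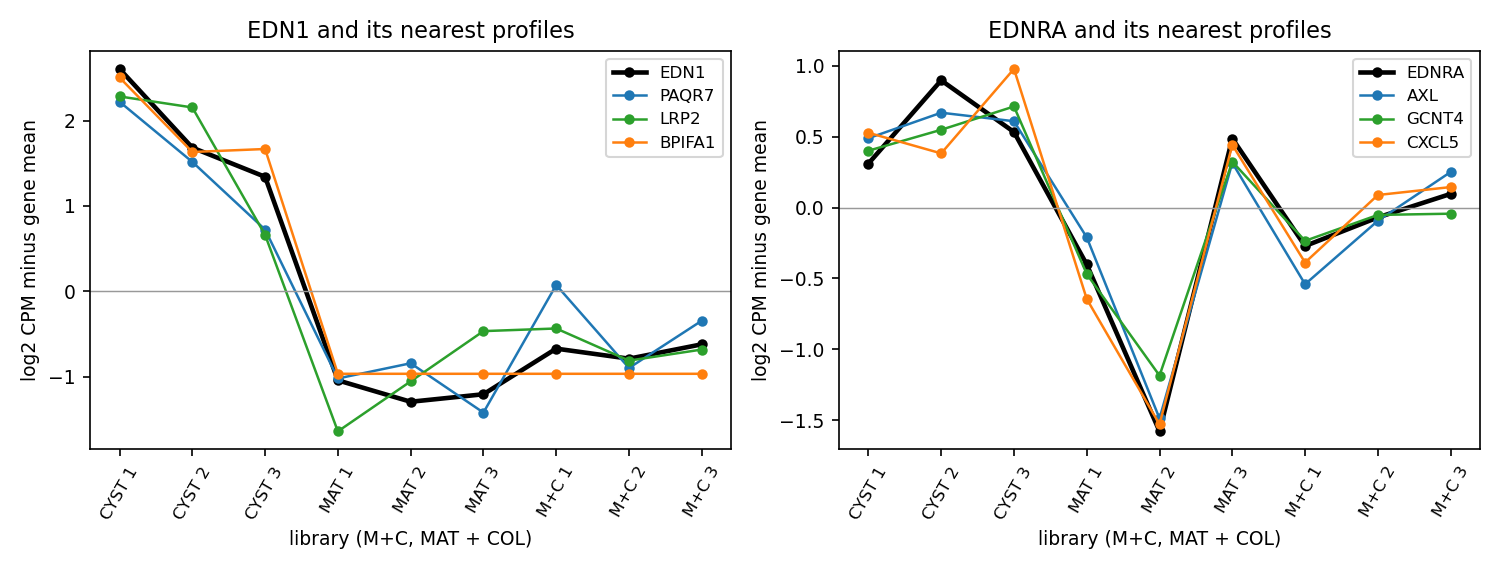
Log2 CPM of EDN1 (left, black) and EDNRA (right, black) and of the 3 genes nearest to each, minus the gene's own mean, in the 9 libraries (M+C, MAT + COL). EDN1 and its neighbours fall between CYST and the groups with EGF, and EDNRA and its neighbours dip in MAT replicate 2. The neighbours were chosen for likeness over these same 9 libraries, so the shared fall and dip follow from the choice. BPIFA1 had no count with EGF and passed the filter through CYST alone.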

How the data were processed

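RNA of 9 cultures was sequenced after SMART-Seq HT PLUS library preparation. Reads were trimmed and mapped to ARS-UCD2.0 by the authors with CLC Genomics Workbench 25.0.1. The authors deposited raw counts per gene, without normalization, and TPM values of the same genes. The strand setting and annotation release are not given in the sources used here. Groups and replicate numbers came from the labels. The members and gene lists were chosen with earlier results of these data known. Genes outside the members are named where a list gene was called without the block, at most 6 per list, where it had 3 counts or fewer in all libraries, or as the 3 nearest profiles, alternatives included. Other list genes given with values are marked as named after their values were seen, and list symbols that were not matched are named too.

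Counts were tested in R 4.3.3 with edgeR 4.0.16 (filterByExpr by group with a minimum count of 10, TMM, glmQLFit, glmQLFTest, two-sided, Benjamini-Hochberg over all genes tested) on the 6 libraries of each comparison. A gene was called at an adjusted p under 0.05. For a DEG, each of the 6 libraries also needed a TPM over 1, and the absolute Log2FC had to exceed 1. Nearest profiles used log2 CPM with a prior count of 2. Totals of 6568968 to 17948600 counts limit low genes, and floors of 3 counts cover counting error only, because PCR reads carried no molecular identifiers.

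Same-numbered libraries deviated together from their group means, with correlations of 0.278 to 0.687 over genes, each the best with its own number, so the numbers were taken to pair the libraries; the labels do not say what they mark. The replicate block was an alternative, as were DESeq2 1.42.0, RLE, no filter, all 9 libraries in one fit, limma 3.58.1 on log2(TPM + 1) or log2(TPM + 0.1), and leaving out each library. Calls, SE and shares are from the fit without the block, which leaves the pairing out, unless the block is named. In MAT relative to CYST that fit called 216 genes and the block 1277, so a gene not called without the block may be called with it. The alternatives for nearest profiles were chosen after seeing the data. Figures were drawn with matplotlib 3.10.9. No sequences are shown, because no sequence table was used here.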

Additional observations from a re-analysis of the deposited data

How the results depend on the processing

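In MAT relative to CYST, 216 genes were called, against 1218 in DESeq2, 1277 with the replicate block and 580 with all 9 libraries in the fit. The DEG criteria were met there by 175 genes without the block and 726 with it. The paper reports a number of DEGs between these for the same groups. In MAT + COL relative to CYST, 186 were called, against 1419, 658 and 601. Leaving out 1 library gave 5 to 267 and 3 to 186 genes, with fewer samples in each fit. No gene was called in MAT + COL relative to MAT under any setting run. EDN1 had a Log2FC of -3.46 to -2.72 in MAT and of -2.94 to -2.24 in MAT + COL relative to CYST over libraries left out, and was called in 10 of 13 alternatives of each comparison. Its selection on these values makes those calls no evidence. Several uncalled Log2FC changed sign. Relative to CYST, with 1 library left out, ECE1 ranged from -0.043 to 0.48 in MAT and from -0.55 to 0.064 in MAT + COL, and EDNRB from -0.75 to 3.04 and from -1.03 to 2.53. For collagen I, ITPR3 was -0.14 with the replicate block and -0.055 and -0.076 in limma on log2(TPM + 1) and log2(TPM + 0.1). With 1 library left out, collagen I gave a Log2FC range of -0.81 to 0.33 for ITPR3, -0.098 to 1.00 for AGT, -0.17 to 0.81 for EDNRA, -0.084 to 0.47 for BDKRB2 and -1.28 to 0.45 for EDNRB. The replicate block changed no call of a member. Beside the calls of ITPR3, AGT, BDKRB2 and PRKCD given with the results, it changed no other call of a named list gene. The causes were not tested.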
